A study of Mus musculus with 36 samples.

Results

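The genes described here are 9 transcription factors that mark the segments of the kidney tubule or hold cells in a tubule epithelial state: Hnf4a, Hnf4g, Esrrg, Tfcp2l1, Elf5, Gata3, Grhl2, Pax2 and Pax8. They were taken by name from the RNA-seq read count table of 36 kidney libraries, and all 9 of 9 were found among the 20458 genes to which the table's RefSeq identifiers could be assigned. Where a gene had more than 1 transcript in the table, the transcript with the highest mean count was used. Kidneys came from C57BL/6 mice of the Pkd1 model or the Pkd2 model, taken 1, 3 or 7 days after birth (P1, P3 or P7), with 3 libraries in each of 12 groups. The controls, called WT, were Pkd1f/f or Pkd2f/f mice, so that they carried the floxed alleles without Cre, and the KO mice were Pkd1f/f:HoxB7-Cre or Pkd2f/f:HoxB7-Cre. HoxB7-Cre acts in the ureteric bud and the collecting duct derived from it, whereas the libraries were made from RNA of kidney tissue with all its segments. Pkd1 and Pkd2 encode the polycystins, whose loss gives polycystic kidney disease.

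Each segment of the nephron is set up during development by a combination of transcription factors, and part of that combination stays on in the adult. Hnf4a and its paralogue Hnf4g are nuclear receptors of the proximal tubule, where Hnf4a is needed for the solute carriers and the brush border to mature. Esrrg, an orphan nuclear receptor, acts on genes of mitochondrial metabolism and of salt transport in the loop of Henle and distal tubule. Tfcp2l1, Elf5, Gata3 and Grhl2 belong to the collecting duct: Tfcp2l1 is needed for intercalated cells and for the mix of intercalated and principal cells, Elf5 marks principal cells, Gata3 acts in the ureteric bud and its derivatives, and Grhl2 controls epithelial barrier genes. Pax2 and Pax8, paired-box factors, are required together for the nephric lineage and act early in nephron formation.

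Library totals ran from 7179152 to 15850818 counts, with a median of 13143336. Counts of the Y-linked genes Ddx3y, Eif2s3y, Kdm5d and Uty, which mark male mice, were present in 18 libraries (3926 to 5041 counts) and were at most 5 in the other 18. At P7 in the Pkd1 model all 3 KO libraries had them and none of the 3 WT libraries did, so that KO and sex cannot be told apart there. At P7 in the Pkd2 model the 3 KO libraries and 2 of 3 WT libraries had them, and WT 3 did not. Adrenal genes (Star, Cyp11a1, Cyp11b1, Th and Dbh) were summed in each library and stood at 8.23 to 52.6 CPM (counts scaled to a common library size after TMM normalization, as used throughout) in 33 libraries, but at 1066 in Pkd1 KO 1 at P7, 954 in Pkd2 KO 3 at P7 and 3286 in Pkd2 WT 2 at P3. Liver genes reached 2591 CPM in Pkd2 KO 3 at P3, against 28.2 to 325 elsewhere. The deleted genes gave a check of the labels only in Pkd2 KO at P7, where Pkd2 fell by 0.29 on the log2 scale. The value had a standard error (SE) of 0.05 and a p of 0.0122 by edgeR's quasi-likelihood test, adjusted over all transcripts and called edgeR adjusted p from here on, with 0.05 as the threshold of a call. Pkd1 did not pass in Pkd1 KO at any day.

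RefSeq promoter windows of GRCm38.p6, the assembly of mm10, were found for 7 of the 9 members, and Hnf4g and Grhl2 were not among them. The 250 bases before the transcription start nearest to that of the counted transcript were searched on both strands for CAAAGTCCA (HNF4), TCAAGGTCA (ERR), AACCGGTT (GRHL), AGATAA for the GATA factors, ACCGGAAGT (ETS) and TATAAA for the TATA box. The windows of Tfcp2l1 and Esrrg are shown because they, among the 7, held TATAAA on either strand, given in capitals within 30 bases.
Tfcp2l1: cacctgacggccTATAAAaggcgccggccg
Esrrg: aaaactttgctaTTTATAgtctacgcccgg
The Tfcp2l1 stretch is chr1:118627905-118627934 on the plus strand, and its TATA box lies 28 to 23 bases before the start. The Esrrg stretch is chr1:187608975-187609004 on the plus strand, and its match lies on the minus strand, 19 to 14 bases before the start. TATAAA was found in 12.4% of 32851 RefSeq windows of that length. None of the 7 windows held the HNF4, ERR, GRHL, GATA or ETS letters, which were present in 0.384%, 0.387%, 0.116%, 9.99% and 0.804% of all windows. The start used for Pax2 lay 293 bases from that of the counted transcript, farther than the 250 bases searched. It lay 33 bases away for Hnf4a, 23 for Esrrg and 6 or fewer for the rest.

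Among the members, Hnf4a, Tfcp2l1 and Pax8 had the highest levels per length of transcript in WT kidneys at P7 (6 libraries of both models). The median level was 107 CPM per kb for Hnf4a (80.7 to 134), 103 for Tfcp2l1 (87.3 to 108) and 77.4 for Pax8 (60.2 to 91.4). Gata3 with 26.5 (20.7 to 43.7), Pax2 with 26.2 (18.4 to 45.8) and Grhl2 with 10.9 CPM per kb (8.16 to 14.4) came next. Hnf4g had 4.46 CPM per kb (2.42 to 6.55), Esrrg 0.394 (0.151 to 0.688) and Elf5 0.0547 (0 to 0.244). Neighbours in this order overlapped in range for Hnf4a and Tfcp2l1, for Tfcp2l1 and Pax8 and for Gata3 and Pax2, and Esrrg and Elf5 overlapped as well. The levels of Esrrg and Elf5 rest on few counts, and both genes have 2 transcripts in the table. Of the genes in the marker lists used below, 29 were too low to test in either model, and 26 of these had more than 1 transcript in the table, against 12 of the 95 that were tested in both. A low count of such a gene was therefore not read as low expression. HTSeq with default options does not count a read that overlaps more than 1 feature, and the part of this in these counts was not tested. Umod, a defining marker of the thick ascending limb, and Slc12a3 of the distal convoluted tubule were at 0 or 1 count in every library and are among the 26.

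**Figure D1:**
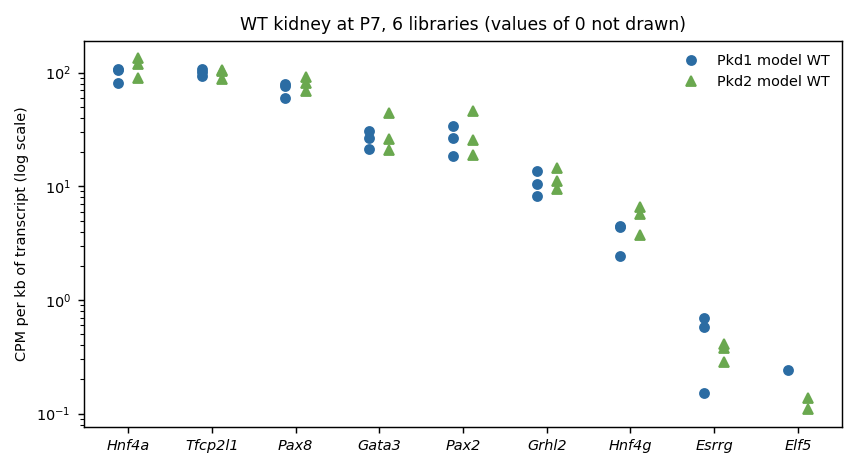
Level of the 9 members in WT kidneys at P7, in CPM per kb of transcript on a log axis; circles are the 3 Pkd1 model and triangles the 3 Pkd2 model libraries, and libraries at 0 are not drawn. Hnf4a, Tfcp2l1 and Pax8 lie between 60.2 and 134 CPM per kb, and Esrrg and Elf5 lie at 0.688 or below.

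The first comparison followed the members in WT kidneys from P1 to P7, days over which the mouse kidney ends nephron formation and its tubules mature. Hnf4a (chromosome 2, 163506811 to 163572907) had 278, 285 and 225 CPM in the 3 Pkd1 WT libraries at P1 and 462, 351 and 471 at P7. In the Pkd2 model it had 329, 318 and 233 CPM at P1 and 519, 583 and 394 at P7. All P7 libraries lay above all P1 libraries of their model, and Hnf4a rose by 0.71 on the log2 scale in Pkd1 WT (SE 0.15, edgeR adjusted p = 0.0229) and by 0.76 in Pkd2 WT (SE 0.17, adjusted p = 0.0148). Tfcp2l1 (chromosome 1, 118627923 to 118685168) had 697, 650 and 628 CPM at P1 and 967, 984 and 809 at P7 in Pkd2 WT, without overlap, and rose by 0.48 (SE 0.09, edgeR adjusted p = 0.00782). In Pkd1 WT its log2 fold change was 0.52, also without overlap, and did not pass (SE 0.20, adjusted p = 0.127).

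Pax2 (chromosome 19, 44746601 to 44838269) went the other way. It had 263, 277 and 242 CPM in Pkd1 WT at P1 and 116, 149 and 80.1 at P7, and fell by 1.18 on the log2 scale (SE 0.20, edgeR adjusted p = 0.0107). In Pkd2 WT it had 229, 233 and 239 CPM at P1 and 112, 81.3 and 199 at P7. The P7 library at 199 CPM was WT 3, the one without Y-linked counts, and its log2 fold change of -0.84 did not pass (SE 0.27, adjusted p = 0.0574), whereas without that library it was -1.27 (SE 0.12, adjusted p = 0.000772). Pax8 (chromosome 2, 24420551 to 24475599), its partner in the nephric lineage, had log2 fold changes of -0.43 in Pkd1 WT (SE 0.12, adjusted p = 0.0565) and -0.12 in Pkd2 WT (SE 0.10, adjusted p = 0.433), and neither passed.

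Of the 8 members that could be tested, 2 passed in Pkd1 WT, Hnf4a and Pax2, and 2 in Pkd2 WT, Hnf4a and Tfcp2l1, while 12.2% and 25.1% of all transcripts tested were called in these comparisons. Gata3 did not pass in Pkd1 WT, although its groups did not overlap (log2 fold change -0.44, SE 0.14, edgeR adjusted p = 0.0823), and Hnf4g, Esrrg and Grhl2 did not pass in either model. The calls of Pax2 in Pkd1 WT and of Tfcp2l1 in Pkd2 WT held in 6 of 6 fits that left out 1 library. That of Hnf4a in Pkd1 WT was lost without WT 1, WT 2 or WT 3 of P1 or WT 1 of P7 (adjusted p = 0.0644, 0.0622, 0.0622 and 0.0965), and in Pkd2 WT without WT 1 of P7 (adjusted p = 0.0563). The 2 WT groups of the Pkd1 model also differed in sex, with Y-linked counts in 2 of 3 libraries at P1 and in none at P7. With that difference as a term neither Hnf4a (log2 fold change 0.59, SE 0.24, adjusted p = 0.336) nor Pax2 (-1.26, SE 0.29, adjusted p = 0.140) passed. The term was set by the P1 libraries alone, and the fit cannot decide the part of sex.

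The markers of the segments moved over the same days. Of 10 proximal tubule genes tested, 7 rose in Pkd1 WT and 9 in Pkd2 WT between P1 and P7 (median log2 fold changes 0.84 and 0.85). All 7 intercalated cell genes rose in both models (medians 1.41 and 1.01), among them the proton pump subunit Atp6v1b1. Of 7 nephron progenitor and early nephron genes, a list that holds Six2 and Cited1, 5 fell in both models (medians -1.81 and -1.83), and all 4 proliferation genes fell in both (medians -1.09 and -1.03). The median of all transcripts in the WT comparisons and in every KO comparison lay within 0.1 of 0 on the log2 scale.

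**Figure D2:**
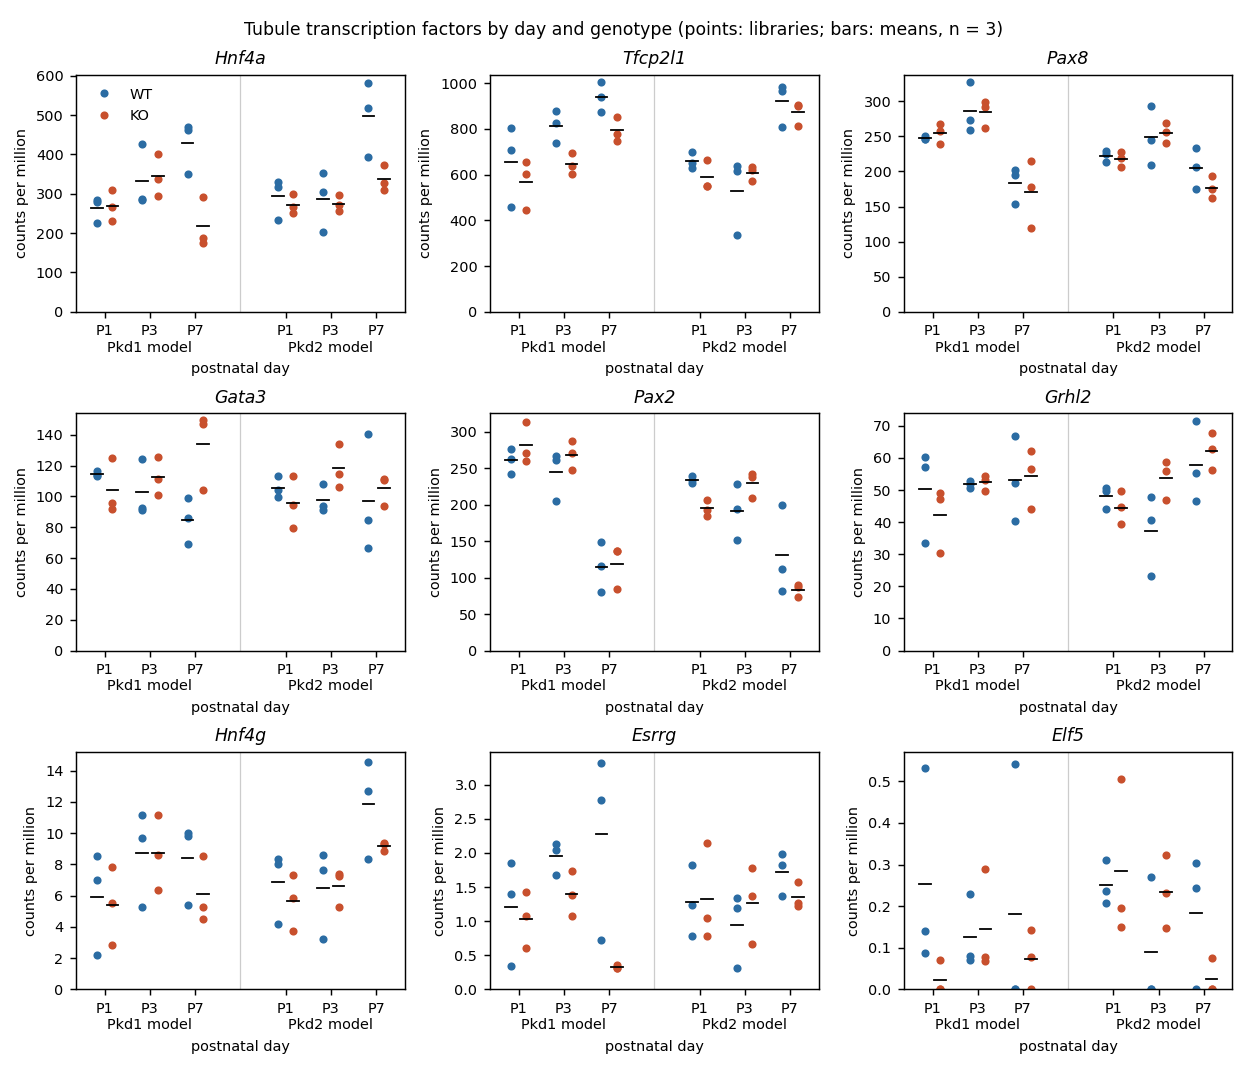
CPM of the 9 members in each of the 36 libraries, by postnatal day and model; points are libraries, blue for WT and red for KO, and black bars are means of 3. At P7 the Hnf4a values of KO lie below all those of WT in both models, and the Gata3 values of KO lie above all those of WT in the Pkd1 model only.

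At P1 and P3 the question was whether loss of a polycystin in the collecting duct moved the members before or as cysts formed. In Pkd1 KO at P1, 0 of 8 members were called by edgeR's test, as were 0% of all transcripts, and 0 members had an unadjusted p under 0.05. In Pkd1 KO at P3, 0 of 8 members were called beside 0.00798% of all transcripts. Tfcp2l1 was the member with the smallest p there, with 826, 737 and 879 CPM in WT and 692, 639 and 602 in KO. The groups did not overlap, and its log2 fold change of -0.34 (SE 0.08, unadjusted p = 0.00306) had an edgeR adjusted p of 0.185 and a DESeq2 adjusted p of 0.0144, and no other member was called by DESeq2 at P1 or P3.

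In Pkd2 KO at P1 and at P3, 0 of 8 members were called, as were 0% of all transcripts at either day, and DESeq2 called 0 members at both. One member had an unadjusted p under 0.05 at each day. Pax2 at P1 had 193, 185 and 207 CPM in KO against 229, 233 and 239 in WT, without overlap (log2 fold change -0.26, unadjusted p = 0.00233, edgeR adjusted p = 0.821). Gata3 at P3 had a log2 fold change of 0.28 (unadjusted p = 0.0365, adjusted p = 0.931). The adrenal signal of Pkd2 WT 2 at P3 went with the lowest values of that group for all 8 members tested. Gata3 was only slightly lower there, at 91.1 CPM beside 93.7 and 108. The summed proximal tubule and principal cell genes were also lowest in that library, at 3158 and 339 CPM, so that low values were not particular to the members. The share of all transcripts with their lowest value there was not counted. The Tfcp2l1 level of Pkd2 WT 2 was 337 CPM beside 635 and 617 in the other WT libraries. The part of this library in the comparison at P3 was not tested beyond leaving it out, which gave 0 member calls as well.

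**Figure D3:**
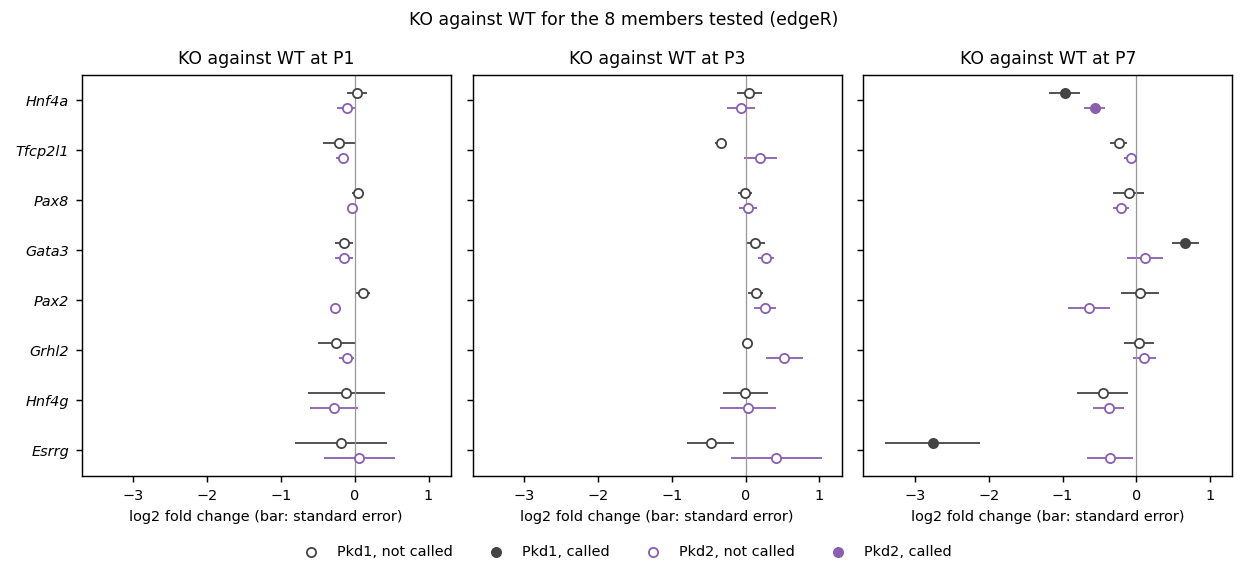
Log2 fold change of KO against WT for the 8 members tested, at P1, P3 and P7; bars are SE, grey is the Pkd1 and violet the Pkd2 model, and filled points passed edgeR's test. All filled points are at P7: Hnf4a in both models, and Esrrg and Gata3 in the Pkd1 model.

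At P7, 3 of 8 members were called in Pkd1 KO and 1 of 8 in Pkd2 KO, where 13.7% and 13.9% of all transcripts tested were called. In Pkd1 KO, 2 members were lower and 1 was higher, against 7.54% and 6.2% of all transcripts, and no fit that left out 1 library called more than 2. In a fit of all 18 libraries of the model with Y-linked counts as a term, none of the 3 passed. Hnf4a had -0.79, Esrrg -2.42 and Gata3 0.70 (SE 0.38, 1.10 and 0.31), with edgeR adjusted p of 0.366, 0.346 and 0.328. Without the term, the fit of these 18 libraries gave SEs of 0.20, 0.60 and 0.17. Y-linked counts differed within a group of this model only in WT at P1, so that this fit cannot decide the part of sex. In Pkd2 KO, 1 was lower and 0 were higher, against 6.06% and 7.82%. The median log2 fold change of the 8 members was -0.17 in Pkd1 KO and -0.28 in Pkd2 KO. In whole kidney a lower value can stand for fewer cells of a segment or for less RNA per cell, and the 2 cannot be told apart in these bulk libraries.

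Hnf4a was the member called in both models. In Pkd1 kidneys at P7 it had 462, 351 and 471 CPM in WT and 188, 174 and 290 in KO. Every KO library lay below every WT library, and the log2 fold change was -0.98 (SE 0.21, edgeR adjusted p = 0.0243). In Pkd2 kidneys it had 519, 583 and 394 CPM in WT and 374, 326 and 309 in KO, again without overlap, and a log2 fold change of -0.57 (SE 0.14, adjusted p = 0.0335). The Pkd1 KO level at P7, 218 ± 63.4 CPM (mean ± SD, n = 3), was near the level of Pkd1 WT at P1, 263 ± 33.2, and the Pkd2 KO level, 336 ± 33.5, lay between the Pkd2 WT levels at P1, 293 ± 52.7, and P7, 498 ± 96.0. In Pkd1 the call was lost without WT 1, KO 1 (the library with the adrenal signal) or KO 2 (adjusted p = 0.0946, 0.0798 and 0.0991), with log2 fold changes between -1.24 and -0.84 over the 6 fits. In Pkd2 it was lost without WT 1, WT 2, KO 2 or KO 3, the last of them the library with the adrenal signal (adjusted p = 0.115, 0.0762, 0.107 and 0.113).

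The proximal tubule genes fell with Hnf4a at P7. All 10 genes tested were lower in Pkd1 KO and all 10 were lower in Pkd2 KO, with median log2 fold changes of -1.39 and -0.69 against a median near 0 for all transcripts. Aqp1, the water channel of the proximal tubule, fell from 806 to 194 CPM in Pkd1 KO (log2 fold change -2.05, SE 0.36, edgeR adjusted p = 0.0138) and from 871 to 452 in Pkd2 KO (-0.95, SE 0.15, adjusted p = 0.00656). Cubn, the receptor cubilin, had log2 fold changes of -1.75 and -0.64, and Fbp1, an enzyme of gluconeogenesis, had -1.64 and -0.69. The number called in Pkd1 KO dropped to 3 without WT 1, 4 without KO 1 and 6 without KO 2, and it was 8 or 9 without another library. In Pkd2 KO it stayed between 8 and 10.

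Relative to these genes Hnf4a was not lower in KO. Hnf4a was expressed as a percentage of the summed CPM of the proximal tubule list in each library, a description for which no test was made. At P7 that percentage was 7.79, 5.84 and 6.89 in Pkd1 WT and 7.10, 9.96 and 8.85 in Pkd1 KO. In the Pkd2 model it was 6.89, 7.78 and 6.48 in WT and 8.75, 8.01 and 7.17 in KO. The groups overlapped in both models, with the higher median in KO. At P1 it lay between 8.42 and 8.75 in Pkd1 WT and between 8.60 and 8.66 in Pkd1 KO.

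**Figure D4:**
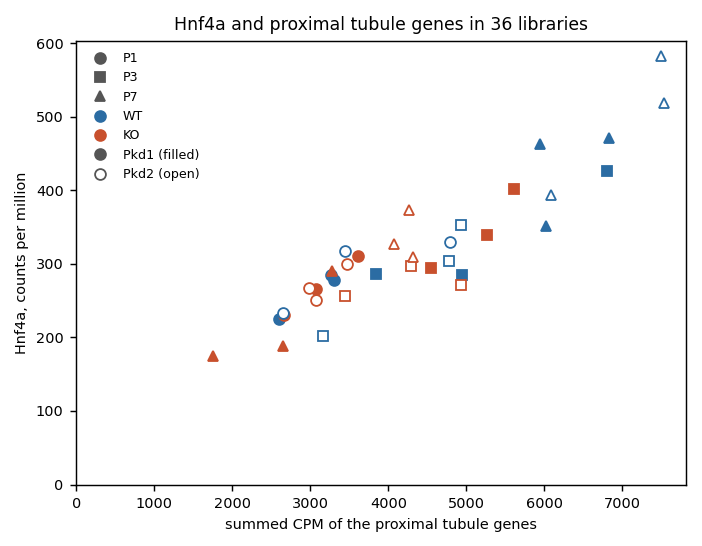
Hnf4a in CPM against the summed CPM of the proximal tubule genes in the 36 libraries; symbols give the day, blue is WT and red KO, and filled symbols are the Pkd1 and open symbols the Pkd2 model. WT libraries at P7 lie between 5937 and 7531 CPM of the proximal tubule genes, as does a Pkd1 WT library at P3 with 6802. The Pkd1 KO libraries at P7, with 174 to 290 CPM of Hnf4a, lie near or below those of P1.

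Hnf4g (chromosome 3, 3508030 to 3659800) was much lower than its paralogue, at 25 to 206 counts per library. At P7 it had 9.98, 9.84 and 5.39 CPM in Pkd1 WT and 4.52, 5.25 and 8.53 in Pkd1 KO. In Pkd2 it had 12.7, 14.6 and 8.34 CPM in WT and 9.33, 9.35 and 8.83 in KO. WT and KO overlapped in both models, and its log2 fold changes of -0.46 and -0.37 did not pass (SE 0.34 and 0.21, adjusted p = 0.382 and 0.281). As a percentage of the summed CPM of the proximal tubule genes, Hnf4g was higher in KO than in WT at P7 in both models, without overlap and with no test made. It was 0.0789 to 0.168 in Pkd1 WT and 0.171 to 0.300 in Pkd1 KO at P7, and 0.137 to 0.194 in Pkd2 WT and 0.205 to 0.230 in Pkd2 KO. Without Pkd2 WT 3 at P7, the lowest WT library, the log2 fold change in Pkd2 was -0.57 (SE 0.16, adjusted p = 0.0419).

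Esrrg (chromosome 1, 187608510 to 188214885) had few counts throughout, 4 to 49 per library. It has 2 transcripts in the table, so that these counts were not read as low expression of the gene. In Pkd1 WT at P7 it had 40, 49 and 10 counts, and in Pkd1 KO 4, 4 and 5. The KO libraries lay below all WT libraries, although WT 3 was far below the other WT libraries, and Esrrg fell by 2.76 on the log2 scale (SE 0.64, edgeR adjusted p = 0.0304). The call held only without WT 3 (adjusted p = 0.00547). Leaving out any other library gave an adjusted p between 0.0721 and 0.116, for WT 1 0.105, WT 2 0.0721, KO 1 0.0861, KO 2 0.116 and KO 3 0.0723. As a percentage of the summed thick ascending limb and distal tubule genes, Esrrg was 0.142 to 0.561 in Pkd1 WT and 0.0940 to 0.191 in Pkd1 KO at P7, with overlap through WT 3. It was 0.255 to 0.303 in Pkd2 WT and 0.305 to 0.374 in Pkd2 KO. The highest counts in that list were those of Calb1 and Kcnj10 (up to 8537 and 2062 in a library). The loop genes Slc12a1 and Kcnj1 had at most 124 and 55, and Umod, Slc12a3 and Cldn10 at most 1. In Pkd2 at P7 the Esrrg counts were 24, 28 and 17 in WT and 20, 16 and 16 in KO, with overlap. Its log2 fold change of -0.35 did not pass (SE 0.31, adjusted p = 0.499).

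Some genes of the thick ascending limb and distal tubule were also lower at P7. Of 8 tested, 3 fell in Pkd1 KO and 2 in Pkd2 KO, and none rose. The log2 fold change was below 0 for 7 of 8 in Pkd1 KO and 6 of 8 in Pkd2 KO (medians -1.70 and -0.91). Egf, the growth factor precursor made by the distal tubule, fell from 47.5 to 9.46 CPM in Pkd1 KO (log2 fold change -2.33, edgeR adjusted p = 0.00618) and fell in Pkd2 KO from 51.0 CPM (log2 fold change -1.59, adjusted p = 0.00106). Slc12a1, the sodium-potassium-chloride cotransporter of the loop, fell by 2.22 in Pkd1 KO (adjusted p = 0.0278) and had a log2 fold change of -1.13 in Pkd2 KO (adjusted p = 0.0641). Kcnj1, the potassium channel ROMK, had -3.34 in Pkd1 KO (adjusted p = 0.0527) and fell by 1.34 in Pkd2 KO (adjusted p = 0.0438). Slc12a1 and Kcnj1 each have 2 transcripts in the table and reached at most 124 and 55 counts in any library. Mean Slc12a1 was 5.30 CPM in WT and 1.13 in KO in Pkd1, and 3.07 and 1.40 in Pkd2. Mean Kcnj1 was 1.61 and 0.150 CPM in Pkd1, and 3.23 and 1.27 in Pkd2, so that these fold changes rest on few counts. The count in Pkd1 KO was 1 without WT 1, WT 2, KO 1 or KO 2 and 4 without WT 3 or KO 3. That in Pkd2 KO was 1 without WT 1, WT 2, KO 1 or KO 3 and 5 without WT 3.

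Tfcp2l1 changed little in KO at P7. It had 874, 939 and 1004 CPM in Pkd1 WT and 748, 778 and 854 in Pkd1 KO. The groups did not overlap, but its log2 fold change of -0.24 did not pass (SE 0.11, adjusted p = 0.175). In Pkd2 it had 967, 984 and 809 CPM in WT and 899, 902 and 814 in KO, with overlap (log2 fold change -0.08, SE 0.09, adjusted p = 0.618). The intercalated cell genes fell more. Of 7 tested, 6 were lower in Pkd1 KO and 6 in Pkd2 KO (median log2 fold changes -0.74 and -0.57). Slc4a1, the anion exchanger of type A cells, fell by 1.80 and 1.04 on the log2 scale, Slc26a4, the exchanger pendrin of type B cells, by 1.27 and 1.23, and Atp6v1b1 by 1.13 and 0.70. The count in Pkd1 KO was 2 without WT 1, 3 without KO 2 and 4 without KO 1 or KO 3, and in Pkd2 KO it was 3 without WT 1, WT 2 or KO 3 and 4 without KO 1 or KO 2.

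Tfcp2l1 as a percentage of the summed CPM of the intercalated cell genes was higher in KO at P7. It was 89.9, 93.3 and 91.5 in Pkd1 WT and 125, 134 and 128 in Pkd1 KO. In the Pkd2 model it was at most 84.04 in WT and 116, 109 and 107 in KO. No KO library overlapped a WT library at P7 in either model. At P3 the order was the reverse in the Pkd1 model, again without overlap, with 133 to 148 in WT and 92.7 to 117 in KO, and in the Pkd2 model the groups overlapped. The WT libraries at P1 ranged from 163 to 192 in the Pkd1 model and from 114 to 138 in the Pkd2 model. Such a percentage rises when the listed genes fall and Tfcp2l1 does not, and no test was made of it.

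Gata3 (chromosome 2, 9857078 to 9887953) was the member that rose. In Pkd1 kidneys at P7 it had 85.7, 99.1 and 68.8 CPM in WT and 147, 150 and 104 in KO. All KO libraries lay above all WT libraries, and the log2 fold change was 0.66 (SE 0.18, edgeR adjusted p = 0.0477). The call was lost without WT 1, WT 3, KO 1 or KO 2 (adjusted p = 0.143, 0.0587, 0.133 and 0.160). Gata3 is also active in the adrenal gland, and KO 1, the library with the adrenal signal of 1066 CPM, had 147 CPM of Gata3, close to the 150 CPM of KO 2, where the adrenal genes summed to 10.5 CPM. Without KO 1 the log2 fold change was 0.59 (SE 0.21).

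In Pkd2 kidneys at P7 Gata3 had 84.5, 66.7 and 141 CPM in WT and 93.5, 112 and 111 in KO. The groups overlapped through WT 3, and its log2 fold change of 0.12 did not pass (SE 0.24, adjusted p = 0.798). Without WT 3 it was 0.48 (SE 0.12, adjusted p = 0.0310). WT 3 had the highest Pax2, Pax8, Gata3 and Grhl2 and the lowest Hnf4a, Hnf4g, Esrrg and Tfcp2l1 of the 3 WT libraries. Its summed principal cell genes were 1243 CPM beside 1059 and 862, and its summed proximal tubule genes 6081 beside 7531 and 7492. It was also the WT library without Y-linked counts, and what set it apart was not tested.

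The principal cell genes fell while Gata3 did not. Of the 4 that could be tested, 3 fell in Pkd1 KO and 3 in Pkd2 KO at P7 (median log2 fold changes -0.96 and -0.65), and the other 4 were too low to test. Aqp2, the vasopressin-regulated water channel, fell from 394 to 81.1 CPM in Pkd1 KO (log2 fold change -2.28, SE 0.56, edgeR adjusted p = 0.0357) and from 451 to 86.8 in Pkd2 KO (-2.38, SE 0.46, adjusted p = 0.0151). Aqp3, the basolateral water channel, fell by 1.19 and 0.86. Scnn1g, the gamma subunit of the epithelial sodium channel, fell by 0.46 in Pkd1 KO and had a log2 fold change of -0.23 in Pkd2 KO (adjusted p = 0.142). The count in Pkd1 KO was 1 without WT 1, KO 2 or KO 3 and 2 without WT 2 or KO 1, and in Pkd2 KO it was 1 without WT 1 or KO 3 and 2 without WT 2, KO 1 or KO 2.

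As a percentage of the summed principal cell genes, Gata3 stood at 8.48, 9.17 and 7.37 in Pkd1 WT at P7 and at 29.2, 41.1 and 24.0 in Pkd1 KO. In the Pkd2 model it stood at 7.97, 7.73 and 11.3 in WT and at 19.3, 19.7 and 22.9 in KO. The lowest KO library was above the highest WT library in both models, WT 3 of the Pkd2 model included. At P1 the ranges were 14.4 to 17.3 in Pkd1 WT and 14.9 to 16.7 in Pkd1 KO, and 8.64 to 11.8 and 10.3 to 12.4 in Pkd2 WT and KO, so that WT and KO overlapped there. At P7 the summed principal cell genes had a median of 484 CPM in Pkd2 KO beside 1059 in Pkd2 WT, and Gata3 itself did not pass there. Such a percentage rises when the listed genes fall and Gata3 does not. Like the other percentages, that of Gata3 carries no test.

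**Figure D5:**
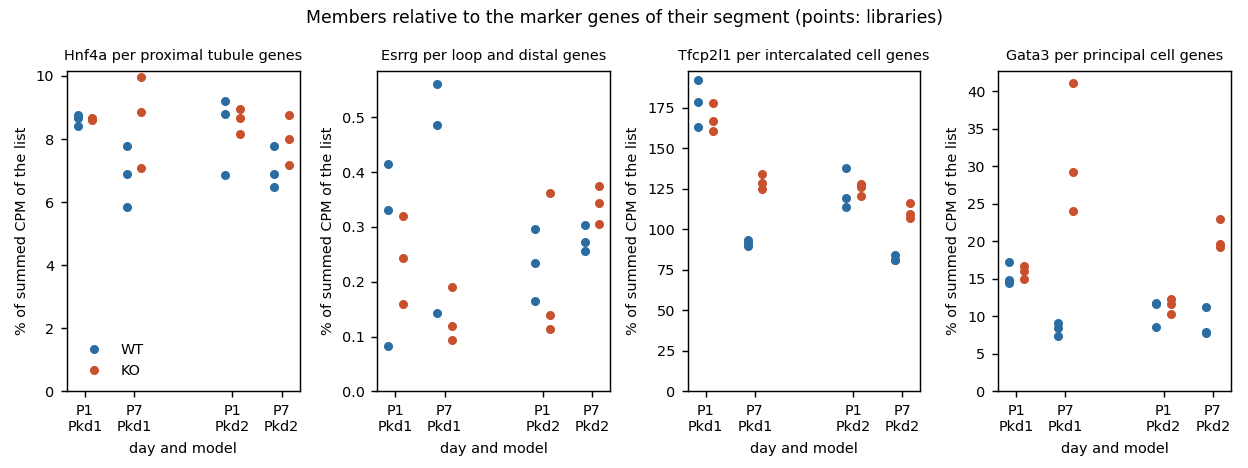
Hnf4a, Esrrg, Tfcp2l1 and Gata3 as a percentage of the summed CPM of the proximal tubule, thick ascending limb and distal tubule, intercalated cell and principal cell genes, at P1 and P7; points are libraries, blue for WT and red for KO. At P7 the WT and KO points of Tfcp2l1 and of Gata3 are apart in both models, with KO above, and those of Hnf4a overlap.

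Grhl2 (chromosome 15, 37232821 to 37363569) had 52.3, 67.0 and 40.4 CPM in Pkd1 WT at P7 and 56.6, 62.2 and 44.2 in Pkd1 KO. In Pkd2 it had 55.5, 46.7 and 71.5 CPM in WT and 56.4, 67.8 and 62.8 in KO. WT and KO overlapped in both models, and its log2 fold changes of 0.03 and 0.11 did not pass (SE 0.20 and 0.15, adjusted p = 0.935 and 0.690). Among 9 epithelial adhesion and keratin genes, 3 rose in Pkd1 KO and 2 in Pkd2 KO and none fell. Krt18, a keratin of simple epithelia, rose from 148 to 570 CPM in Pkd1 KO (log2 fold change 1.94, adjusted p = 0.00254) and from 193 to 429 in Pkd2 KO (1.15, adjusted p = 0.0382), and its partner Krt8 rose by 1.06 and 0.71. Cldn4, a tight junction claudin, rose by 1.02 in Pkd1 KO and had a log2 fold change of 0.54 in Pkd2 KO (adjusted p = 0.243). The count in Pkd2 KO was 1 without WT 1, WT 2, KO 1, KO 2 or KO 3 and 5 without WT 3, and that in Pkd1 KO was 2 without WT 1. As a percentage of the summed CPM of these genes, Grhl2 was 2.45 to 3.32 in Pkd1 WT and 1.77 to 2.27 in Pkd1 KO, and 2.50 to 2.70 in Pkd2 WT and 2.12 to 2.33 in Pkd2 KO. KO lay below WT without overlap in both models, a description with no test.

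Pax2 had 116, 149 and 80.1 CPM in Pkd1 WT at P7 and 83.8, 137 and 137 in Pkd1 KO, with overlap and a log2 fold change of 0.05 (SE 0.26, edgeR adjusted p = 0.910). In Pkd2 it had 112, 81.3 and 199 CPM in WT and 73.6, 89.6 and 87.3 in KO, also with overlap. Its log2 fold change of -0.65 did not pass (SE 0.28, adjusted p = 0.172). It was -0.90 without WT 2 (adjusted p = 0.0437) and shrank to -0.21 without WT 3, so that its size rested on WT 3. With Y-linked counts as a term it was also -0.21 (SE 0.14, adjusted p = 0.353). WT 3 was the one library of this comparison without such counts, so that this fit sets the same library aside and is not a separate check. Pax8 had 195, 201 and 154 CPM in Pkd1 WT at P7 and 119, 216 and 177 in KO, and 207, 176 and 234 in Pkd2 WT and 193, 175 and 163 in KO. Its groups overlapped in both models, and its log2 fold changes of -0.10 and -0.21 did not pass (SE 0.21 and 0.11, adjusted p = 0.761 and 0.234). Of 7 nephron progenitor and early nephron genes, 0 were called in Pkd1 KO and 1 in Pkd2 KO at P7, Lhx1, which acts in the early nephron, with a log2 fold change of 0.62 (adjusted p = 0.0480).

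Elf5 (chromosome 2, 103412098 to 103450989) could not be tested. It had 0 to 8 counts per library and a mean of 2.08, and it did not reach the minimum of 10 counts in any of the 36 libraries. In Pkd1 WT at P7 it had 0, 8 and 0 counts and in Pkd1 KO 1, 0 and 2. In Pkd2 it had 4, 0 and 3 in WT and 0, 1 and 0 in KO. A difference of Elf5 between WT and KO was not detectable at these counts. With no filter on low counts Elf5 was not called at P7 in either model (adjusted p = 0.626 and 0.374 in edgeR's test). The gene has 2 transcripts in the table, so that its low counts were not read as low expression.

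Whether the effect of KO changed with age was tested as an interaction over the 18 libraries of a model. In the Pkd1 model 2 of 8 members were called, beside 7.75% of all transcripts. The effect on Hnf4a at P7 minus that at P1 was -1.01 on the log2 scale (SE 0.29, edgeR adjusted p = 0.0411), and that on Gata3 was 0.80 (SE 0.24, adjusted p = 0.0481). Esrrg had -2.57 and did not pass (SE 0.83, adjusted p = 0.0652), except without WT 1 or KO 3 of P1 or WT 3 of P7 (adjusted p = 0.0497, 0.0394 and 0.0124), and DESeq2 called it (-2.59, DESeq2 adjusted p = 0.0386). Y-linked counts were present in 2 of 3 WT and 0 of 3 KO libraries at P1. At P7 they were present in 0 of 3 WT and 3 of 3 KO libraries. With them as a term neither Hnf4a (-0.71, SE 0.61, adjusted p = 0.922) nor Gata3 (0.86, SE 0.49, adjusted p = 0.880) passed. WT at P1 was the only group of this model in which these counts differed, so that the fit cannot decide the part of sex. The call of Hnf4a held without KO 3 of P1 or WT 2, WT 3 or KO 3 of P7 and was lost in the other 8 of 12 fits that left out 1 library (edgeR adjusted p up to 0.119). That of Gata3 held without KO 1 of P1 or WT 2 or KO 3 of P7 and was lost in the other 9 of 12 (up to 0.131). In the Pkd2 model 0 of 8 members were called, beside 1.3% of all transcripts, with 0 members at an unadjusted p under 0.05 and 0 called by DESeq2, and Hnf4a had -0.46 (SE 0.26, adjusted p = 0.406).

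The KO effects at P7 were then compared between the models, each with its own WT libraries. No transcript was called (0% of 12343), so 0 of 8 members passed edgeR's test, while 1 member and 2130 transcripts had an unadjusted p under 0.05 and DESeq2 called 0 members. That member was Esrrg, with a difference, Pkd1 minus Pkd2, of -2.39 on the log2 scale (SE 0.70, unadjusted p = 0.00491, adjusted p = 0.154). Without Pkd1 WT 3 it was -2.80 (SE 0.45, adjusted p = 0.00900). The difference was -0.39 for Hnf4a (SE 0.28, adjusted p = 0.493) and 0.57 for Gata3 (SE 0.34, adjusted p = 0.410). The call of Gata3 in Pkd1 KO and not in Pkd2 KO was thus not shown to differ between the models.

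Other transcription factors of the tubule were examined beside the members at P7. Of 22 listed, 16 could be tested in the Pkd1 model, of which 3 fell and 1 rose in KO, and 17 in the Pkd2 model, of which 7 fell and 0 rose (median log2 fold changes -0.24 and -0.50). Nr3c2, the mineralocorticoid receptor, fell by 2.41 in Pkd1 KO (edgeR adjusted p = 0.0211) and by 0.58 in Pkd2 KO (adjusted p = 0.0269). Foxi1, which specifies intercalated cells and is also in that list, fell by 0.74 and 0.57. The gene that rose in Pkd1 KO was Hoxb7, named here after its values were seen, with 0.52 (adjusted p = 0.0291). No gene of the list was called higher there without WT 1, WT 2, KO 1, KO 2 or KO 3. The numbers that fell were 0 without WT 1, 1 without KO 1 or KO 2 and 5 without WT 3 in Pkd1 KO, and 1 without WT 1 or KO 3, 4 without WT 2 or KO 2 and 9 without WT 3 in Pkd2 KO. Of 6 paralogues of the members tested, 0 were called in Pkd1 KO (by edgeR's test) and 1 in Pkd2 KO, Esrra, which fell by 0.34 (adjusted p = 0.0492).

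Markers of other cells were counted in the same way. The 3 smooth muscle genes tested rose in both models at P7, with median log2 fold changes of 1.97 and 1.90, and the call of all 3 held without any one library. Of 4 proliferation genes, 1 rose in Pkd1 KO and 4 in Pkd2 KO, among them Cdk1 with log2 fold changes of 0.80 and 0.73, and the latter count was 1 without WT 1, KO 2 or KO 3 and 2 without KO 1. Of 4 fibroblast genes, 1 fell in Pkd1 KO, and 2 fell and 1 rose in Pkd2 KO. Of 4 leukocyte genes, 0 rose in Pkd1 KO (by edgeR's test) and 2 in Pkd2 KO. Of 3 endothelial genes, 0 fell in Pkd1 KO and 2 in Pkd2 KO, and of 4 podocyte genes 1 fell in Pkd1 KO, Podxl, and 0 in Pkd2 KO. Of 4 liver genes, 1 fell in each model, Ttr. The calls of the fibroblast, liver and podocyte genes in Pkd1 KO, of the leukocyte and liver genes in Pkd2 KO and of Lhx1 and Esrra in Pkd2 KO were each lost without at least 1 library. No adrenal gene was called in either model, although their median log2 fold changes were 7.45 over 3 genes and 8.82 over 5, since the signal came from 1 KO library in each. Without that library the medians were -0.07 and 1.08, and 1 adrenal gene was called without KO 3 in the Pkd1 and without KO 1 in the Pkd2 model. The part of these cells in the results for the members was not tested.

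The transcripts whose levels were most like those of each member over the 36 libraries were found by Pearson correlation of log2 normalized counts, a description in which libraries of a group share their mouse age, genotype and model. Among those nearest to Hnf4a were Clrn3 (r = 0.94) and Anks4b (0.91). Those nearest to Pax2 were Padi2, Rprm and Nell1 (0.93 to 0.91), and those nearest to Pax8 were Sall1, Notch2 and Notch1 (0.89 to 0.88). Esrrg was nearest to Abca13, Slc25a30 and Erbb3 (0.89 to 0.84), Grhl2 to Atp8b1, L1cam and Crybg1 (0.89 to 0.87) and Tfcp2l1 to Myo9a, Sestd1 and Elovl7 (0.88 to 0.86). Hnf4g was nearest to Patj, Prkaa2 and Gm11992 (0.81 to 0.80). Gata3 had the weakest neighbours, Hoxb9, Sbspon and Nfe2l3 (0.78 to 0.71), of which Hoxb9 belongs to the same homeobox cluster as Hoxb7.

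Among the 8 tested members themselves, the highest correlation over the 36 libraries was that of Pax2 with Pax8 (r = 0.86). Hnf4a went with Hnf4g (0.73), Esrrg (0.61) and Tfcp2l1 (0.61), and Tfcp2l1 went with Hnf4g (0.70) and Grhl2 (0.70). The lowest were those of Hnf4a with Gata3 (-0.57) and of Tfcp2l1 with Pax2 (-0.50). These values, too, describe libraries that share their groups, and they carry no test.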

How the data were processed

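RNA of mouse kidney was sequenced in 36 libraries, with 3 in each of 12 groups set by model, day and genotype as the labels give them. The authors deposited whole-number read counts per RefSeq transcript, not normalized, and the submitters' processing notes name CASAVA 1.8.2, TopHat2 2.1.0, HTSeq and mm10. The study's methods state default HTSeq options and RefSeq annotation. Of 29996 transcripts, 28978 were paired with a symbol through a RefSeq table of GRCm38.p6. Library totals of 7179152 to 15850818 counts set the precision. The study gives 3 samples per group without saying whether each was a single animal. Libraries of a group that differ in Y-linked counts cannot be from the same animal. P-values measure only the spread between these libraries.

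A transcript entered the tests of a model when 3 or more of its 18 libraries had 10 or more counts. This kept 12527 transcripts for Pkd1 and 12633 for Pkd2 and left out Elf5. TMM factors were computed over the libraries of a model. KO was compared with WT at each day, and WT at P7 with P1, over the 6 libraries concerned by edgeR's quasi-likelihood test (edgeR 4.0.16, R 4.3.3), and interactions over the 18 libraries of a model or the 12 P7 libraries of both. P-values were adjusted by Benjamini-Hochberg over all transcripts tested, with 0.05 as threshold. The SE of a log2 fold change is its size divided by the square root of the F statistic. Figures and summaries were made in Python 3.11.15 with pandas 2.3.3 and matplotlib 3.10.9. The scripts were tested on simulated data.

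The members and the gene lists were chosen with earlier results of these data known. Named genes were all members, the deleted and Y-linked genes, up to 3 called genes of each list by size of log2 fold change at P7 in either model (or the one with the smallest p where none was called), and the 3 transcripts most like each member. One gene that this rule names is not reported here. Alternatives were DESeq2 1.42.0, RLE factors, no filter, transcripts of a gene added up, a replicate block, a single fit over all 18 libraries, a term for Y-linked counts, and omission of each library in turn. Replicate numbers were taken to pair libraries where the correlations of same-numbered deviations all exceeded 0.1, which held in the Pkd1 model at P1 only (0.389, 0.259 and 0.579).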

Additional observations from a re-analysis of the deposited data

Results flagged for a closer look

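The effect of Pkd1 KO on 2 of the members differed between days in a test of the difference itself. For Hnf4a the effect at P7 minus that at P1 was -1.01 on the log2 scale, with a log2 fold change of 0.03 at P1 and -0.98 at P7. For Gata3 it was 0.80, with -0.14 at P1 and 0.66 at P7. Both calls were lost with Y-linked counts as a covariate (Hnf4a -0.71, adjusted p = 0.922, and Gata3 0.86, adjusted p = 0.880), and in 8 and 9 of 12 fits that left out 1 library. Those counts were present in 2 of 3 WT and 0 of 3 KO libraries at P1 and in 0 of 3 WT and 3 of 3 KO libraries at P7, so that the difference between days and sex cannot be told apart here. Groups of 3 libraries were not tested for a library far from the others, and no other result was singled out.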

How the results depend on the processing

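No result changed direction past the threshold under any alternative run. Of the values of single members under an alternative, 1272 kept their side of the threshold, 26 passed it and 46 no longer did. These values pool results that were called with results that were not, and only the called ones could lose a call. With 1 library left out, the P7 calls in Pkd1 KO held in 3 of 6 fits for Hnf4a, 1 for Esrrg and 2 for Gata3. That of Hnf4a in Pkd2 KO held in 2 of 6, whereas those of Pax2 in Pkd1 WT and Tfcp2l1 in Pkd2 WT held in 6 of 6. Counts of members called that moved by over 1.5 times were those for Pkd1 KO at P3, from 0 to 1 with DESeq2, and for Pkd1 KO at P7, from 3 to 0 when all 18 libraries were fitted with Y-linked counts as a covariate. For Pkd2 KO at P7 the count moved from 1 to 3 when the 6 libraries compared were fitted with that covariate. Among the P7 libraries of that model only WT 3 lacked Y-linked counts. The fit of all 18 libraries of the Pkd2 model with the covariate called Hnf4a at P7 (log2 fold change -0.64, edgeR adjusted p = 0.0279). It did not call Gata3 (0.28, edgeR adjusted p = 0.348). In Pkd1 WT between P1 and P7 the count of members called moved from 2 to 4 with DESeq2, to 4 with the replicate block and to 0 with the covariate. In Pkd2 WT it moved from 2 to 4 with the replicate block and to 4 with the covariate. For the Pkd1 KO effect at P7 minus that at P1 it moved from 2 to 0 with the covariate. Leaving out 1 library gave 0 to 2 members called in Pkd1 KO at P7, 0 to 3 in Pkd2 KO at P7, 1 to 4 in Pkd1 WT, 1 to 5 in Pkd2 WT, 0 to 2 for the Pkd1 interaction and 0 to 1 for the difference between models. The cause was not tested.

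In Pkd1 KO at P7 the replicate block took the number of transcripts called from 1721 to 712 and cost the call of Esrrg (log2 fold change -2.55, adjusted p = 0.0721), DESeq2 gave 2763, and fitting all 18 libraries gave 3882, or 6 with the Y-linked covariate (Hnf4a -0.79, adjusted p = 0.366; Gata3 0.70, adjusted p = 0.328). Without 1 library it was 224 to 3206 in Pkd1 KO and 650 to 2052 in Pkd2 KO. The same fits called 503 to 1638 transcripts in Pkd1 WT and 1421 to 3476 in Pkd2 WT. They called 314 to 2182 for the Pkd1 interaction and 0 to 1460 for the difference between models. In Pkd1 KO at P3, 1 transcript was called by edgeR, 4 with no filter and 248 by DESeq2, which also called 2 in Pkd1 KO at P1, 33 in Pkd2 KO at P1 and 38 at P3 where edgeR called 0. Beside these 0 or near 0 counts, 161, 1767, 708 and 563 transcripts had an unadjusted p under 0.05 (Pkd1 P1 and P3, Pkd2 P1 and P3). In Pkd1 WT the number was 40 with the covariate, 2360 with the replicate block and 2234 with DESeq2, against 1532. In Pkd2 WT it was 3020 with the covariate and 2773 with the replicate block, against 3177. With the covariate it was 2016 in Pkd2 KO at P7, against 1753, and 0 for the Pkd1 interaction, against 971. The covariate could not be fitted in Pkd1 alone at P3, where every library had Y-linked counts, or at P7, where it is the same as genotype. In the Pkd1 fits that held it, only WT at P1 differed in these counts within a group. The fit of all 18 libraries with the covariate and TMM factors over the 6 libraries compared were chosen after seeing the data. Same-numbered libraries deviated together in Pkd1 at P1 only, where the replicate block called 5 transcripts and no member, and elsewhere they share only a number. Few counts limit Esrrg and Elf5 most.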
